A study of Rattus norvegicus with 8 samples.

Results

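Beside the fibrillar collagens that carry load, tendon holds collagens that organise the fibrils, link them to cells and build basement membranes. The genes described here are 10 rat collagens of these kinds, chosen by name: Col4a1 and Col4a2 (basement membrane), Col6a1, Col6a2 and Col6a3 (beaded filaments), Col12a1, Col14a1 and Col22a1 (fibril-associated collagens with interrupted triple helices, FACIT) and Col15a1 and Col18a1 (multiplexins). Of the 10 genes, 9 had a row among the 15590 genes of the expression table, and all 9 were among the 13863 genes tested. Col6a3 was not analysed here.

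The samples were right Achilles tendons of male wild-type Sprague-Dawley rats aged 8 to 10 weeks. In the 0 h p.r. group (post-run, 4 libraries), rats ran for 1 h on an inclined treadmill and were killed at once. The naïve control group (NC, 4 libraries) kept its normal activity, and by the methods of the study it was killed together with a later group, so running and time of day cannot be told apart. The labels do not say that each library came from its own animal, and p-values measure the spread between these samples. Levels are FPKM, fragments per kilobase of gene after a scaling of each library, so levels of different genes can be compared per length. The deposited scaling left the FPKM sums of the libraries unequal, at 554130 to 900138. Each library's median ratio to the gene means was level, at 0.973 to 0.979. In bulk tissue, fewer cells of a type and less RNA per cell cannot be told apart.

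Type IV collagen forms a sheet-like network under epithelia and endothelium and around muscle, fat and Schwann cells, and its most widespread form joins 2 chains of Col4a1 with 1 of Col4a2. Type VI collagen forms beaded microfibrils around cells from chains that include those of Col6a1 and Col6a2. The FACIT collagens do not form fibrils alone. Types XII and XIV sit on the surface of type I fibrils, and type XXII is known from tissue junctions, among them that of muscle and tendon. Types XV and XVIII carry sugar chains and lie at or near basement membranes, and a C-terminal fragment of type XVIII is endostatin.

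Col4a1 and Col4a2 lie head to head and are transcribed in opposite directions. The bases between their annotated starts are shown because these are the members whose levels moved most closely together, and the 250 bases before the start of Col6a1, a chain of the other pair, are set beside them. Both are RefSeq sequences of build GRCr8, whereas the expression values were counted on Rnor_6.0. Capitals mark GGGCGG (read here on the other strand, as CCGCCC) in the first and CCCTCCCC in the second.
Col4a2 to Col4a1, chr16:84885521-84885596, plus strand: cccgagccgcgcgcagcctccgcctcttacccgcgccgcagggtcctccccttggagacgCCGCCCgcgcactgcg
Col6a1 upstream, chr20:11905440-11905689, plus strand: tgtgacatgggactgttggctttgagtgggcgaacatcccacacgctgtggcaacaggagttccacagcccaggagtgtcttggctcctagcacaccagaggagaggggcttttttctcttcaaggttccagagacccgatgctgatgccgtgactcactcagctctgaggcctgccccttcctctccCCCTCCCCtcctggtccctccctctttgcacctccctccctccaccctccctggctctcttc

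The starts of Col4a2 and Col4a1 were separated by 76 bases with 78.9% G and C, and the stretch before Col6a1 had 60%. The motif CCAAT, the motif GGGCGG, the motif CCCTCCCC and lastly TATAAA were searched on both strands. The Col4a2 to Col4a1 stretch had 1 match to GGGCGG and none to the other motifs, and the Col6a1 stretch had 1 match to CCCTCCCC and none to the others. In windows of 300 bases around 33469 annotated rat gene starts, 33.1% held GGGCGG, 10.5% held CCCTCCCC, 37.5% held CCAAT and 14.2% held TATAAA. The windows of this length at Col4a1 and at Col4a2 held the first 3 of these motifs and overlap each other. Such matches describe letters only and are not evidence of a bound site. Promoter sequences were found for 6 of the 10 genes. No other protein-coding gene starts between Col4a1 and Col4a2, or between the neighbouring genes Col6a1 and Col6a2.

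The libraries held 10660131 to 17464752 reads in the listed genes, recovered from the steps between FPKM values. The tendon markers tenomodulin (Tnmd), Scx and Mkx were present in each library, at 87.0 to 348, 20.5 to 53.5 and 5.43 to 13.0 FPKM. NC replicate 2 stood apart in its mitochondrial share and in its long genes. Mitochondrial genes took 31.1% of its FPKM against 16.3% to 21.9% in the other 7 libraries, and long genes were low in it. Against the mean of the other NC libraries, the 1387 tested genes of greatest length had a median log2 difference of -0.49 there and as many of the shortest genes 0.46, whereas these medians lay between -0.16 and 0.21 in the other libraries (each against the others of its group). This description was chosen after the values were seen. Post-run libraries also differed among themselves. A chi-square per gene, which measures disagreement of recovered reads between libraries, was 45.5 to 251 between pairs of them. It was 82.8 to 93.9 between NC replicate 2 and the other NC libraries. The measured collagens are long genes, at 1.39 to 4.78 times the median length of tested genes, and all 9 were lower in NC replicate 2 than in the other NC libraries on average, by a log2 difference of -1.66 to -0.18. For the 9 collagens and for the list genes described with leave-one-out fits, the value without that library is given where it changed a call.

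The levels of the 9 collagens ran from among the highest of all genes to the middle of the table. By mean FPKM over all libraries, Col6a2 ranked 283, Col6a1 290, Col4a1 300 and Col4a2 366 of the 13863 tested genes. Col18a1 followed at rank 895, Col14a1 at 1419, Col12a1 at 3087, Col15a1 at 3982 and Col22a1 at 6569. Together the 9 genes had a summed FPKM of 1207 ± 198 in NC and 1055 ± 145 in 0 h p.r. (mean ± SD, n = 4), which was 22.2 ± 4.54% and 18.9 ± 3.44% of the sum over the collagen genes listed.

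**Figure D1:**
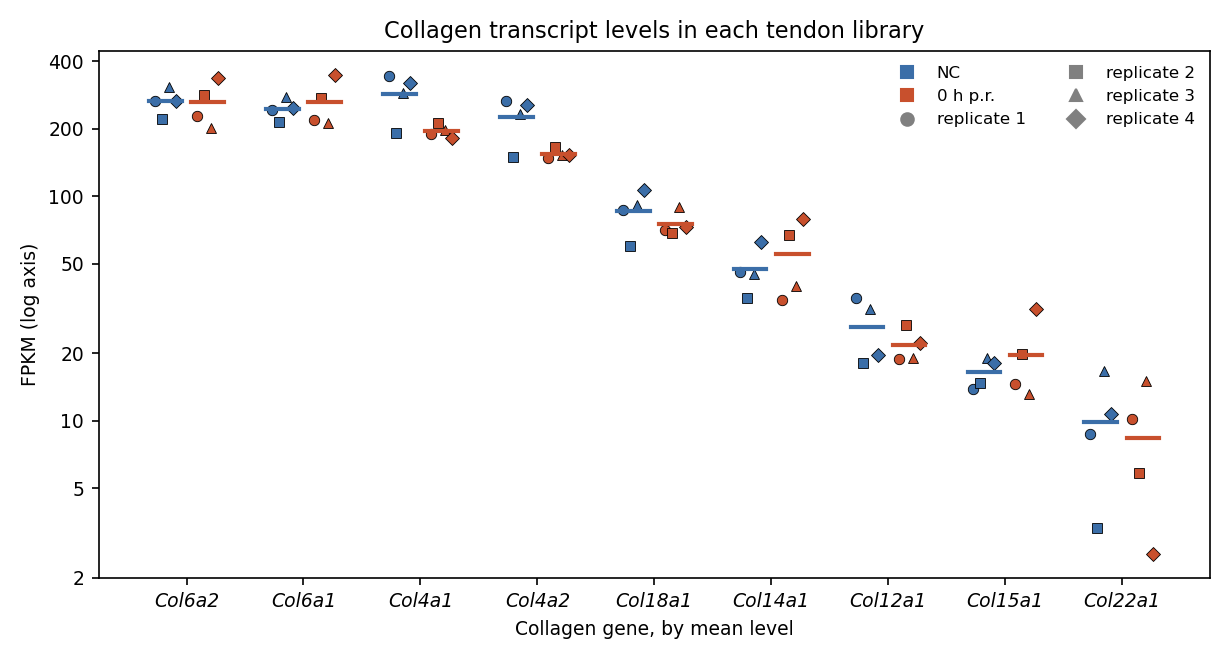
FPKM (log axis) of the 9 measured collagens in each of the 8 libraries, genes ordered by mean level. Blue symbols are NC, orange symbols are 0 h p.r., the shape gives the replicate number and the horizontal line is the mean of 4 libraries. The type IV and type VI chains lie between 149 and 348 FPKM, and Col22a1 has the widest spread within both groups.

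The order of neighbouring genes was the same in every library over part of this range only. In NC, Col4a1 was above Col6a2 in 2 of 4 libraries and Col6a1 was above Col4a2 in 2 of 4, so these positions were not separated. Col6a2 was above Col6a1 in 4 of 4 NC libraries but in 2 of 4 after running. After running both type VI chains had higher means than both type IV chains, and Col6a2 was above Col4a1 in 4 of 4 libraries. Below the type IV and VI chains, each NC library had the order Col18a1, Col14a1, Col12a1, Col15a1 and Col22a1. In 0 h p.r. the same order of means stood, with 3 of 4 libraries showing Col18a1 above Col14a1, Col12a1 above Col15a1 and Col15a1 above Col22a1.

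To ask which of these collagens differed between tendons after running and at rest, the log2 values were compared with limma across all tested genes. None of the 9 passed an adjusted p of 0.05 with a fold of at least 2, where 2.7% of tested genes passed (0.894% lower and 1.8% higher). None passed the adjusted p at any fold, where 5.72% of tested genes passed (2.23% lower and 3.49% higher). At an unadjusted p under 0.05 there were 2 of the 9, Col4a1 and Col4a2, both lower in 0 h p.r., against 22.6% of tested genes (11.2% lower and 11.4% higher). A second fit, limma's voom on the recovered reads, likewise called 0 of the 9 by adjusted p and had 2 with an unadjusted p under 0.05. For none of the 9 did the groups fail to overlap, against 15.6% of tested genes (7.47% lower and 8.15% higher). The median log2 fold change was -0.17 over the 9 collagens and -0.0014 over all tested genes, with 3 of the 9 values above zero and 6 below. This split depended on single libraries. Without NC replicate 3 it was 5 above and 4 below (median 0.036), and without 0 h p.r. replicate 4 it was 1 above and 8 below (median -0.15).

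**Figure D2:**
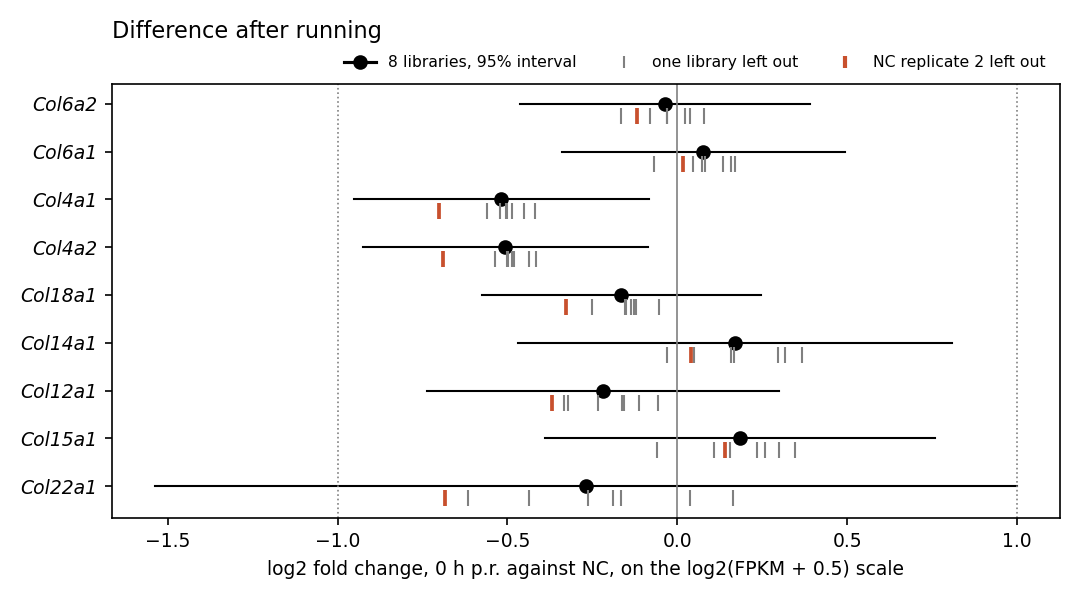
Log2 fold change of each measured collagen, 0 h p.r. against NC, on the log2(FPKM + 0.5) scale. Circles and black lines are the fit to 8 libraries with its 95% interval, ticks below them are the fits that each left out 1 library, the orange tick is the fit without NC replicate 2, and dotted lines mark a fold of 2. The intervals of Col4a1 and Col4a2 lie below zero and the other 7 include zero.

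Col4a1 (ENSRNOG00000016281) encodes the alpha 1 chain of type IV collagen. Its FPKM was 343, 191, 289 and 321 in NC replicates 1 to 4 and 189, 213, 196 and 182 in 0 h p.r. replicates 1 to 4. Of the NC libraries 3 lay above every 0 h p.r. library, and NC replicate 2 lay among them. The means were 286 ± 67.2 and 195 ± 13.0 FPKM (mean ± SD, n = 4), a log2 fold change of -0.52 (SE 0.19, 95% interval -0.95 to -0.085, limma unadjusted p 0.0242, adjusted p 0.149).

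Col4a2 (ENSRNOG00000023972) encodes the alpha 2 chain, the partner in the same trimer. It had 265, 150, 232 and 255 FPKM in NC and 149, 165, 153 and 153 in 0 h p.r. The same 3 NC libraries stood above all others. The means were 225 ± 52.0 and 155 ± 6.99 FPKM (mean ± SD, n = 4), a log2 fold change of -0.51 (SE 0.19, 95% interval -0.93 to -0.087, limma unadjusted p 0.0232, adjusted p 0.146).

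The calls of both type IV chains depended on NC replicate 2. Without it, the NC means were 318 ± 26.9 FPKM for Col4a1 and 250 ± 17.2 for Col4a2 (mean ± SD, n = 3), and the log2 fold changes were -0.70 and -0.69 with limma adjusted p of 0.0140 and 0.0115. Both also passed the adjusted p, with log2 fold changes of -0.63 each, when limma weighted libraries by their spread (0.0134 and 0.0107), and at -0.57 and -0.55 when the trend of each library over gene length was taken out (0.0250 and 0.0333), the latter a fit chosen after the data were seen. Of all tested genes, 692 passed the adjusted p without NC replicate 2, against 793 in the main fit. With library weights 2069 passed, and with the length trend removed 1047. In the other 7 leave-one-out fits neither chain passed, with adjusted p up to 0.335 for Col4a1 and 0.329 for Col4a2. Under the same FPKM sum per library, log2 fold changes were -0.52 and -0.50 with limma adjusted p of 0.551 and 0.564. Without mitochondrial genes in that sum they were -0.60 and -0.59 (0.292 and 0.298). With a block for the replicate number, the limma adjusted p were 0.273 and 0.260. Neither chain reached a fold of 2 in any fit run.

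Type IV collagen has 6 chains, and the remaining 4 form networks of more restricted tissues. Their levels were far lower than those of Col4a1 and Col4a2. Col4a5 had 3.99, 4.04, 4.64 and 5.60 FPKM in NC and 8.90, 6.79, 6.14 and 5.25 in 0 h p.r., with 3 of 4 post-run libraries above all NC libraries (log2 fold change 0.51, SE 0.18, limma adjusted p 0.132). Col4a6 had 0.435, 0.103, 0.305 and 0.260 FPKM in NC and 0.688, 0.560, 0.698 and 0.552 in 0 h p.r., (log2 fold change 0.55, SE 0.19, limma adjusted p 0.118). It met the filter of 0.5 FPKM in 4 libraries through the post-run group alone, so that the filter fixed its direction. Col4a3 and Col4a4 had means of 1.04 and 4.82 FPKM in NC and 1.25 and 5.14 in 0 h p.r., with log2 fold changes of 0.21 and 0.092 and adjusted p of 0.679 and 0.844. None of these 4 chains passed the test, and the fitted values of Col4a3, Col4a4 and Col4a5 were above zero while those of Col4a1 and Col4a2 were below. The difference between the chains was not tested.

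**Figure D3:**
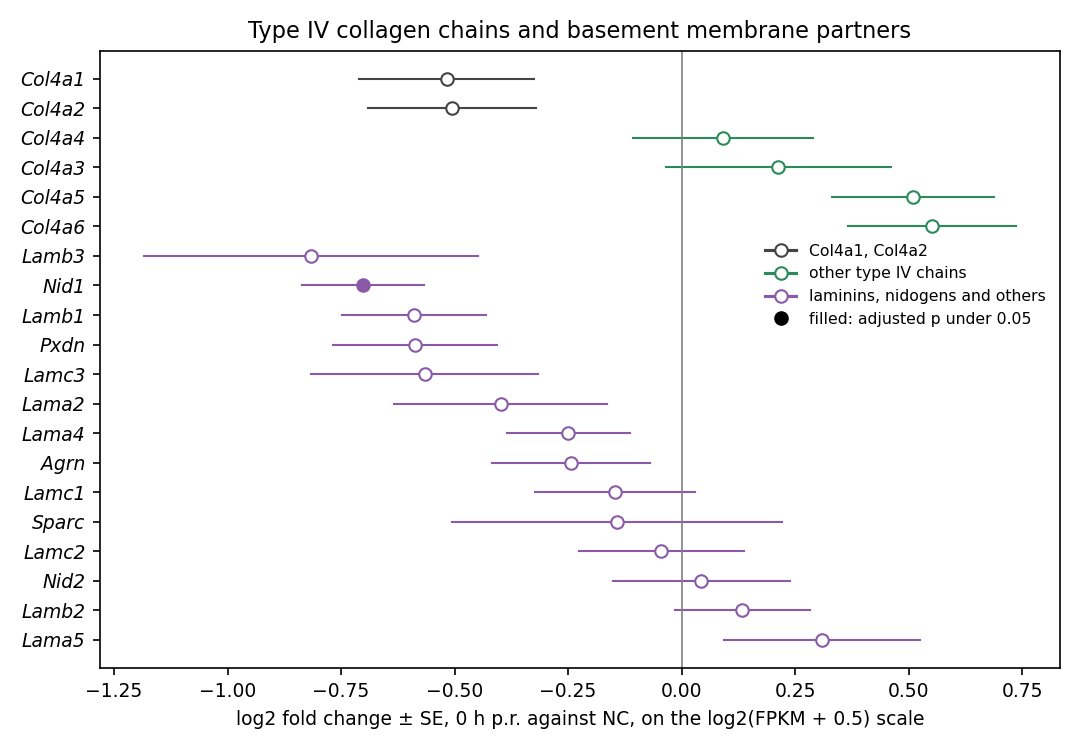
Log2 fold change (circle) ± SE of the 6 type IV chains and of 14 tested basement membrane partners, 0 h p.r. against NC, on the log2(FPKM + 0.5) scale. Filled circles have a limma adjusted p under 0.05. Nid1 is the only filled circle, 11 of the 14 partners lie below zero, and Col4a1 and Col4a2 lie below zero while the other type IV chains lie above it, of which Col4a6 was tested through its post-run values alone.

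Laminins, nidogens, agrin, Sparc and peroxidasin join or modify the type IV network. Of the 17 genes of this list, 14 were tested. At the adjusted p, 1 was lower and none was higher, none passed with a fold of 2, and the median log2 fold change was -0.25. Nid1, a nidogen that links laminin to type IV collagen, had 87.1, 59.9, 77.7 and 68.5 FPKM in NC and 40.1, 45.9, 45.5 and 46.5 in 0 h p.r. All 4 post-run libraries lay below NC, and Nid1 fell by 0.70 on the log2 scale (SE 0.13, limma adjusted p 0.0220). Its call held in 3 of the 8 leave-one-out fits, with adjusted p of 0.0132 to 0.0713. It was lost with the same FPKM sum per library (0.271), with that sum taken without mitochondrial genes (0.103) and with the replicate block (0.0983). Lamb3, a laminin chain of epithelia with the largest fitted difference of the list, had 4.92 ± 2.67 FPKM in NC and 2.49 ± 1.19 after running and did not pass (log2 fold change -0.82, mean ± SD of n = 4, limma adjusted p 0.229).

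A further 2 partners, named after their values were seen, lay close to the threshold. Lamb1, a laminin chain found in most basement membranes, had 33.3, 19.4, 24.1 and 28.1 FPKM in NC and 16.4 to 17.3 in 0 h p.r., without overlap (log2 fold change -0.59, limma adjusted p 0.0630). Pxdn, the peroxidase that forms sulfilimine bonds between type IV molecules, had 51.8, 29.8, 47.1 and 42.1 FPKM in NC and 24.8 to 32.8 in 0 h p.r. (log2 fold change -0.59, limma adjusted p 0.0935). As for the type IV chains, NC replicate 2 was the lowest NC library for both, and without it their adjusted p were 0.0206 and 0.0255.

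Fat cells rest on a type IV basement membrane, and adipocyte markers moved in the same direction. All 11 tested adipocyte markers were lower in 0 h p.r., 6 of them past both thresholds, and their summed FPKM was 3109 to 6202 in NC and 1046 to 2268 in 0 h p.r. None of them was at 0, and Adipoq, the adiponectin gene, was at 293 to 688 FPKM in NC and 90.0 to 284 in 0 h p.r. In NC replicate 2, where type IV chains were low, the adipocyte sum was 5458, the second highest of the 8 libraries. The part of fat in the type IV values was not tested. The summed FPKM of 9 tested endothelial markers was 599 to 716 in NC and 588 to 776 in 0 h p.r., where 2 of the 9 had fitted values above zero and 7 below (median log2 fold change -0.040). By adjusted p, 1 of them was called higher, Egfl7 (limma adjusted p 0.0270), and none was called lower, with Kdr at -0.40 (0.332) and Tek at -0.32 (0.184). That of 10 mural cell markers was 1760 to 1862 in NC and 1573 to 2653 in 0 h p.r., with none called higher and 1 called lower, Kcnj8 (limma adjusted p 0.0476). Much of that range came from Des, which muscle also expresses and which had 1364 FPKM in 0 h p.r. replicate 1 but 121 in replicate 4. Without Des the sums were 1230 to 1393 in NC and 1289 to 1764 in 0 h p.r. Of the 10 mural markers, 5 had fitted values above zero and 5 below (median log2 fold change -0.093). Acta2 was at 0.44 and Myh11 at 0.32 (limma adjusted p 0.207 and 0.350), with Mcam at -0.45 and Pdgfrb at -0.40 (0.0742 and 0.127).

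Col4a1 and Col4a2 kept a nearly fixed ratio. It was 1.29, 1.27, 1.25 and 1.26 in NC and 1.27, 1.29, 1.28 and 1.19 in 0 h p.r., and its coefficient of variation over the 8 libraries, 2.63%, was the lowest of the 36 pairs among the 9 collagens. Over the 8 libraries Pearson's r of their log2 values was 0.995, and of the 13862 other tested genes Col4a2 was the most like Col4a1 and the reverse. The next genes by likeness were Rgp1 (r 0.973 with Col4a1 and 0.987 with Col4a2) and Lcmt2 (0.972 and 0.983). With the group means taken out, Fbrs came first for both (0.992 and 0.997) and the partner chain was among the next 2 (0.989). These correlations over 8 libraries share library depth and composition, and with 13862 candidate genes some high values arise in any set of 8.

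**Figure D4:**
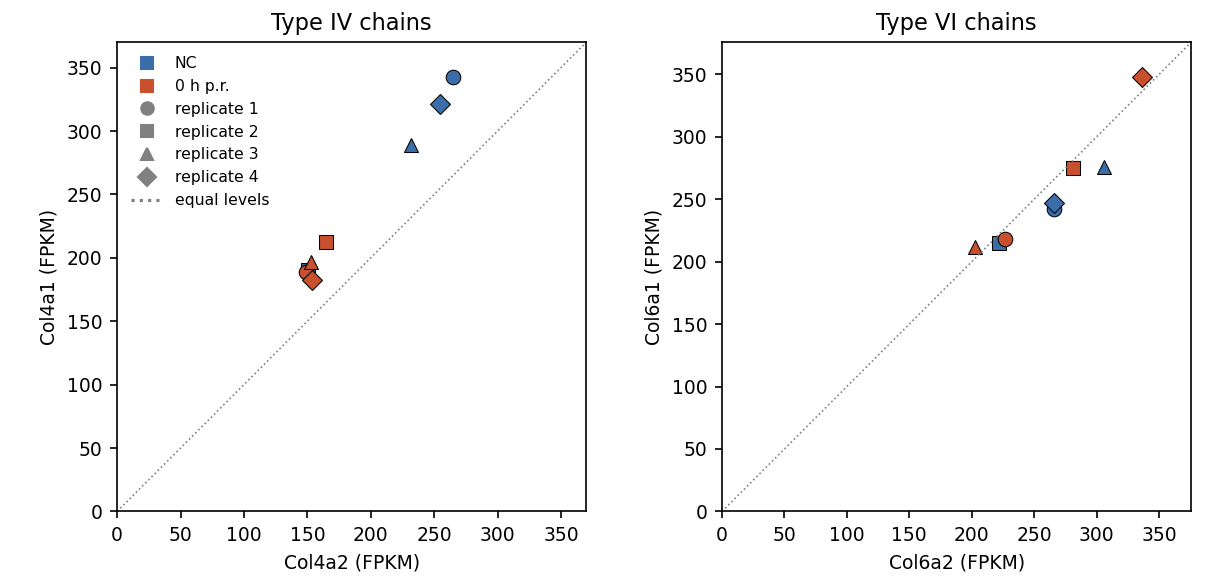
FPKM of the 2 chains of type IV collagen (left) and of the 2 measured chains of type VI collagen (right) in each of the 8 libraries. Blue symbols are NC, orange symbols are 0 h p.r., shapes give the replicate number and the dotted line marks equal levels. Type IV libraries fall into 3 NC libraries at 232 to 265 FPKM of Col4a2 and 5 libraries at 149 to 165, with NC replicate 2 among the latter, and type VI libraries of both groups intermingle.

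Col6a1 (ENSRNOG00000001249) encodes the alpha 1 chain of type VI collagen. It had 242, 215, 276 and 247 FPKM in NC and 218, 275, 211 and 348 in 0 h p.r. The groups overlapped throughout, with 0 h p.r. replicate 4 the highest library and 0 h p.r. replicate 3 the lowest. The log2 fold change was 0.076 (SE 0.18, 95% interval -0.34 to 0.49, limma adjusted p 0.864), and its sign turned with quantile scaling, with a scaling that set aside mitochondrial genes, with library weights and without 0 h p.r. replicate 4.

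Col6a2 (ENSRNOG00000001254), the alpha 2 chain, had 266, 222, 306 and 266 FPKM in NC and 227, 281, 202 and 337 in 0 h p.r. The same libraries were at the ends of its range. Its log2 fold change was -0.036 (SE 0.19, 95% interval -0.46 to 0.39, limma adjusted p 0.940). These intervals exclude a fold of 2 in either direction for both chains.

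The ratio of Col6a1 to Col6a2 was 0.910, 0.970, 0.902 and 0.930 in NC and 0.960, 0.976, 1.04 and 1.03 in 0 h p.r. Its coefficient of variation of 5.45% was the second lowest of the 36 pairs, and the groups overlapped by 1 library of each. On the log2 values, the chains were not each other's nearest gene. Col5a2, a fibrillar chain, was the most like Col6a1 (r 0.983), Col3a1 was also close (0.962), and Col6a2 ranked sixth (0.950). Col3a1, the type III chain, was the most like Col6a2 (r 0.973), followed by Arhgef40 (0.965) and Dclre1c (0.957). With the group means taken out, Col6a2 ranked 3 for Col6a1 and Col6a1 ranked 4 for Col6a2 (r 0.980), close to the ranks of the type IV pair.

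Type IV and type VI chains varied differently. Pearson's r of Col4a1 with Col6a1 was 0.012 over the 8 libraries and with Col6a2 0.27, given as a description. The ratio of Col4a1 to Col6a1 was 1.41, 0.886, 1.05 and 1.3 in NC and 0.868, 0.774, 0.929 and 0.524 in 0 h p.r., so 3 of 4 NC libraries and no post-run library had more Col4a1. The type IV chains took 46.5%, 37.5%, 39.9% and 44.1% of the summed FPKM of the 9 collagens in NC and 36.3%, 33.7%, 37.2% and 27.3% in 0 h p.r. These shares did not overlap, by a margin of 37.5% against 37.2%. The type VI chains took 42.7 ± 4.41% in NC and 49.3 ± 4.88% in 0 h p.r. (mean ± SD, n = 4), and here the groups overlapped.

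**Figure D5:**
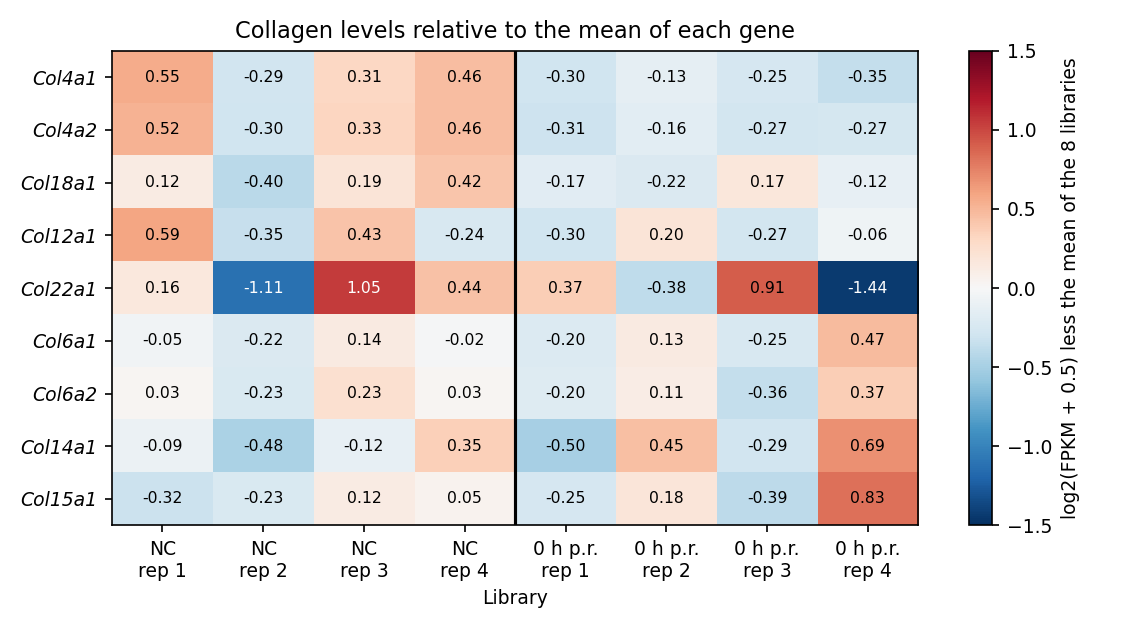
Level of each measured collagen in each library as log2(FPKM + 0.5) less the mean of that gene over the 8 libraries, with the value printed in each cell. Red is above the mean, blue below, and the black line parts NC from 0 h p.r. NC replicate 2 is below the mean for all 9 genes, and 0 h p.r. replicate 4 is above it for Col6a1, Col6a2, Col14a1 and Col15a1 and at -1.44 for Col22a1.

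The FACIT collagens took 6.84 ± 0.426% of the sum in NC and 8.0 ± 0.899% in 0 h p.r. (mean ± SD, n = 4). Col12a1 (ENSRNOG00000058470), whose product lies on fibrils of tendon and ligament, had 35.2, 18.2, 31.5 and 19.6 FPKM in NC and 18.8, 26.7, 19.1 and 22.2 in 0 h p.r. The highest and the lowest of the 8 values were both in NC. Its log2 fold change was -0.22 (SE 0.23, 95% interval -0.74 to 0.30, limma adjusted p 0.638), with -0.058 without NC replicate 1 and -0.37 without NC replicate 2. Nedd4 (r 0.937) and Map3k5 (0.927) were the genes most like it.

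Col14a1 (ENSRNOG00000026415), of the type XIV collagen that limits lateral fusion of young fibrils, had 45.9, 35.1, 44.9 and 62.7 FPKM in NC and 34.4, 67.0, 39.9 and 79.3 in 0 h p.r. Both the highest 2 values and the lowest were in 0 h p.r. Its log2 fold change was 0.17 (SE 0.28, 95% interval -0.47 to 0.81, limma adjusted p 0.788) and was -0.032 without 0 h p.r. replicate 4. Ccnl2 (r 0.966), Tedc1 (0.965) and Cstf2 (0.961) were the most like it.

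Col22a1 (ENSRNOG00000024824) had the lowest mean and the widest spread of the 9, with 8.70, 3.32, 16.6 and 10.7 FPKM in NC and 10.1, 5.86, 15 and 2.55 in 0 h p.r. These values rest on 159 to 1182 reads per library, so the spread was well above counting error. It spanned 5.02-fold within NC and 5.88-fold within 0 h p.r., against at most 2.38-fold within a group for any other of these collagens. Its log2 fold change was -0.27 with a 95% interval of -1.54 to 1.00 (SE 0.56, limma adjusted p 0.837), so a change of 2-fold was not detectable at this spread. The sign turned when NC replicate 3 (0.037) or 0 h p.r. replicate 4 (0.16) was left out.

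Since type XXII collagen belongs to the muscle junction, muscle markers are set beside it. The summed FPKM of 9 tested skeletal muscle markers was 4339, 7213, 7233 and 4801 in NC and 34780, 5945, 15605 and 1054 in 0 h p.r. The library with the lowest sum, 0 h p.r. replicate 4, also had the lowest Col22a1. The library with the highest, 0 h p.r. replicate 1, was at a middle level of Col22a1, and NC replicate 2, low in Col22a1, was not low in this sum. Genes of slow fibres had another order. Myh7 and Tnnt1 were lowest in 0 h p.r. replicate 3, at 0.514 and 1.52 FPKM against 16.0 and 34.6 in replicate 4, and replicate 3 had the highest Col22a1 after running. They also had the largest fitted differences of the list (log2 fold changes -3.42 and -3.54, limma adjusted p 0.169 and 0.133), while the other 7 tested markers had values above zero. No muscle marker was at 0, and the part of muscle in the Col22a1 values was not tested. The genes most like Col22a1 were Elac2 (r 0.978), Adamts20 (0.962) and Akap6 (0.955), and with the group means taken out Xirp1, a muscle attachment gene, came first (0.985).

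The multiplexins took 8.47 ± 0.777% of the sum in NC and 9.12 ± 1.33% in 0 h p.r. (mean ± SD, n = 4). Col18a1 (ENSRNOG00000001229) had 86.5, 60.1, 91.1 and 106 FPKM in NC and 70.9, 68.4, 89.8 and 73.0 in 0 h p.r. The groups overlapped, with NC replicate 2 the lowest library. Its log2 fold change was -0.17 (SE 0.18, 95% interval -0.58 to 0.24, limma adjusted p 0.657) with -0.33 without NC replicate 2 and -0.053 without NC replicate 4. Tbx3 (r 0.977), Wdr59 (0.967) and Nhsl1 (0.960) were the most like it, and its r with Col4a2 was 0.74.

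Col15a1 (ENSRNOG00000060381) had 13.9, 14.8, 19.0 and 18.1 FPKM in NC and 14.6, 19.8, 13.2 and 31.3 in 0 h p.r. The value of 0 h p.r. replicate 4 stood above the rest. Its log2 fold change was 0.18 (SE 0.25, 95% interval -0.39 to 0.76, limma adjusted p 0.734) and -0.061 without that library. The genes most like it were LOC498750 (r 0.955), Col6a1 (0.953) and Loxl3 (0.947). Among the 9 collagens, Col15a1 thus varied with the type VI chains, but also with Col14a1 (r 0.833, against 0.857 with Col6a2). Its fellow multiplexin Col18a1 varied more with the type IV chains, but also with Col22a1 (r 0.709, against 0.725 with Col4a1).

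Markers of neighbouring hard tissue were counted in the same libraries. The summed FPKM of cartilage markers was 10.8 to 96.9 in NC and 104 to 404 in 0 h p.r., and that of bone markers 303 to 469 and 560 to 2169. Most of the bone sum was Spp1, at 281 to 455 FPKM in NC and 489 to 1983 in 0 h p.r. Without Spp1 the bone sums were 14.6 to 54.9 in NC and 53.5 to 186 in 0 h p.r., and the groups overlapped. All 5 tested cartilage and 6 tested bone markers had fitted values above zero, of which 0 and 1 passed the adjusted p. Listed at 0 were Col10a1, Bglap and Sp7 in NC replicate 2 and Sost in NC replicates 1 and 4. In both lists 0 h p.r. replicate 4 was highest, the library that was also highest for Col6a1, Col6a2, Col14a1 and Col15a1. Tendon cell markers summed to 3182 to 4689 in NC and 4415 to 8833 in 0 h p.r., again highest in 0 h p.r. replicate 4, and none of 9 passed. Fitted values were above zero for 6 of these 9 and below for 3 (median log2 fold change 0.088). Chad and Comp made up most of the difference in the sum, and the means of Tnmd, Thbs4 and Mkx were lower after running. The part of these tissues in the collagen values was not tested. Of the remaining lists, that of paratenon and loose connective tissue had 1 of 8 tested genes past both thresholds, Cd55, which was higher. Fitted values of these 8 were above zero for 4 and below for 4 (median log2 fold change -0.028), with Clec3b at -0.66 (limma adjusted p 0.0530). The lists of Schwann cells and macrophages had none past both thresholds, and none at the adjusted p as well. The 1 bone marker past the adjusted p was Phex (0.0243), at 0.147 to 0.334 FPKM in NC and 0.735 to 0.909 in 0 h p.r., which met the filter through the post-run group alone.

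Other collagens were counted for context. Of 23 other non-fibrillar collagen genes 15 were tested, with 1 higher and none lower past both thresholds and a median log2 fold change of 0.21. The 1 was Col9a3, a chain of the cartilage FACIT collagen IX, with 1.19, 1.19, 1.20 and 2.57 FPKM in NC and 4.83, 6.75, 2.49 and 7.90 in 0 h p.r. It rose by 1.51 on the log2 scale (SE 0.34, limma adjusted p 0.0377), although 1 library of each group overlapped and the call held in 2 of the 8 leave-one-out fits (adjusted p 0.0172 to 0.115, and 0.0760 without NC replicate 2). It was lost with these 2 scalings too (0.116 and 0.0872). Of 11 fibrillar collagens tested none passed both thresholds, and 1 was lower by adjusted p, with a median of 0.11. This was Col5a3, a minor type V chain, which fell from 41.4 ± 4.52 to 24.1 ± 6.62 FPKM (mean ± SD, n = 4). Its fitted log2 fold change was -0.81, and its limma adjusted p of 0.0484 held under 0.05 in 2 of the same 8 fits (0.0477 to 0.135, and 0.0615 without NC replicate 2). It was also over 0.05 with a pseudocount of 0.1 (0.0504), with no filter on low values (0.0522) and without the trend (0.0555). The same held with these scalings (0.269 and 0.117) and with the replicate block (0.113). Col2a1, the cartilage fibril chain and the largest fitted difference of the list, ranged from 0.934 to 40.6 FPKM in NC and from 16.2 to 171 in 0 h p.r. and did not pass (2.75, adjusted p 0.161).

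Receptors and ligands of these collagens were counted in the same way. Of 20 genes 19 were tested, and 1 passed both thresholds, being higher, with a median of 0.15. Itga3, the laminin-binding integrin alpha 3 chain, went up from 7.71 ± 1.41 to 17.1 ± 5.41 FPKM (mean ± SD, n = 4). The fitted log2 fold change was 1.07 (limma adjusted p 0.0305). All 4 post-run libraries lay above NC, and the call held in 2 of the 8 leave-one-out fits (0.00911 to 0.0857). Without NC replicate 2 its adjusted p was 0.0624, with the equal-sum scalings it was 0.118 and 0.0841, and with the replicate block 0.0984. Of the collagen-binding integrin chains, Itga10 had the largest fitted difference of the list, with 4.57, 3.73, 7.91 and 7.83 FPKM in NC and 8.69, 11.7, 12.9 and 32.7 in 0 h p.r. Its groups did not overlap, and it did not pass (log2 fold change 1.26, limma adjusted p 0.0977). Itga1, Itga2 and Itga11 did not pass either (log2 fold changes 0.11, 0.39 and -0.029, limma adjusted p 0.866, 0.527 and 0.975). Itga7, a laminin receptor chain of muscle, had 43.3, 27.3, 42.3 and 33.5 FPKM in NC and 23.3 to 26.3 in 0 h p.r. (log2 fold change -0.53, limma adjusted p 0.0832), and passed without NC replicate 2 (0.0245).

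Of 16 proteases and inhibitors that act on collagen 10 were tested, and 2 passed both thresholds, 1 in each direction, with a median of -0.0068. Both were tissue inhibitors of metalloproteinases. Timp1 had 62.9, 104, 64.3 and 86.0 FPKM in NC and 110, 215, 202 and 211 in 0 h p.r., all above NC, and rose by 1.20 on the log2 scale (SE 0.25, limma adjusted p 0.0320). Timp4, which is abundant in fat, had 104, 123, 60.4 and 80.6 FPKM in NC and 22.4, 30.7, 25.6 and 40.0 in 0 h p.r., all below NC, a log2 fold change of -1.60 (SE 0.25, limma adjusted p 0.00915). Among the leave-one-out fits, the call of Timp4 held in 8 of 8 and that of Timp1 in 3 (0.0122 to 0.104). With the equal-sum scalings the adjusted p of Timp1 was 0.0755 and 0.0675.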

How the data were processed

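Stranded libraries of polyA RNA were aligned by the authors to Rnor_6.0 (HISAT2 2.1.0) and counted per gene (featureCounts 1.6.3), per the methods and the submitters' processing notes. The strand setting of the counting is not given in the sources used here. The deposited table held FPKM per library for 15590 genes. The deposited log2 fold changes, p-values and adjusted p-values are the authors' own comparison with DESeq2 1.30.1 and were not used. Sample columns were matched to samples by the descriptions in the labels, and groups came from the titles.

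Genes reaching 0.5 FPKM in 4 or more of 8 libraries were tested with limma 3.58.1 (R 4.3.3) on log2(FPKM + 0.5), with a trend, two-sided and with Benjamini-Hochberg adjustment over 13863 genes. Fold changes on this scale understate those of low genes. A call needed an adjusted p under 0.05, with or without a fold of 2. FPKM are not counts, so count models were not run as the main test. Whole reads were recovered for 99.99% of genes, within 0.05 of a read, and fitted with voom. The fit was also run on simulated reads with the same dispersion (spread beyond counting error) for every gene. They had no outlying library and no length trend, so this checks the code and not its performance on these data. Values were summarised in Python 3.11.15. Alternatives were other pseudocounts, filters and scalings, library weights, a replicate block, voom and leaving out each library.

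The 10 genes and all lists were chosen with earlier results of these data known. Named besides the 10 were list members past both thresholds, otherwise the 2 largest fitted differences per list, and the 3 genes most like each member, of which some are not reported here. Lists of cell type markers are given by counts and sums, with only some of the genes that this rule names, and Tnmd, Scx and Mkx check the labelled tissue. Lamb1, Pxdn, Itga1, Itga2, Itga7, Itga10, Itga11, Comp, Thbs4, Tek, Des, Phex, Sost, Sp7, Spp1 and the type IV chains other than the members were named after their values were seen, as were the sums without Des or Spp1. The same holds for Acta2, Clec3b, Mcam, Myh11 and Pdgfrb.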

Additional observations from a re-analysis of the deposited data

Results flagged for a closer look

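The ratio of Col4a1 to Col4a2 was 1.19 in 0 h p.r. replicate 4 and 1.27 to 1.29 in the other 0 h p.r. libraries. The gap from this library to the nearest was 0.832 of the range of the group, the only one of 26 groups of 4 libraries checked in which a single library stood so far from the rest. Chance gives such a gap in about 1 of 20 groups. Replicate 4 had the lowest Col4a1 of its group (182 FPKM), whereas its Col4a2 (153 FPKM) was between those of replicates 1 and 2.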

How the results depend on the processing

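The counts over all genes depended on scaling and on single libraries, and those over the collagens on NC replicate 2. From 374, the genes past both thresholds went to 171 with the same FPKM sum per library, 243 with the same sum over genes that are not mitochondrial and 195 to 516 when single libraries were left out (195 without 0 h p.r. replicate 2, 201 without replicate 3 of that group and 217 without NC replicate 1). From 793, those past the adjusted p went to 178, 288 and 251 to 1178. They went to 2069 with array weights and to 1047 with the length trend removed. Collagens past the adjusted p went from 0 to 2, Col4a1 and Col4a2, with array weights, with the length trend removed and without NC replicate 2 (0 to 2 over the fits that left out a library). In the remaining fits the type IV chains kept their direction without passing. The median over the 9 collagens was -0.33 to 0.036 when single libraries were left out. Col6a1 reversed to -0.015 with quantile scaling, -0.0083 with the sum over genes that are not mitochondrial and -0.0027 with array weights. Leaving out single libraries, log2 fold changes were -0.068 to 0.17 for Col6a1, -0.17 to 0.078 for Col6a2, -0.032 to 0.37 for Col14a1, -0.061 to 0.35 for Col15a1 and -0.69 to 0.16 for Col22a1, each with both signs. With either equal-sum scaling Nid1, Col5a3, Col9a3, Itga3 and Timp1 no longer passed (limma adjusted p 0.0675 to 0.271). The causes were not tested. The median of all genes was -0.0014 as reported and -0.079 to -0.0028 under the scalings.

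Replicate numbers are shared between the groups, and the labels do not say whether they pair the libraries. Deviations from the group means correlated at -0.14 to 0.072 between same-numbered libraries and at -0.25 to 0.23 between differently numbered ones. With so few same-numbered pairs, these values cannot settle whether the libraries were paired. With the replicate block, 212 genes passed both thresholds, 235 the adjusted p and 0 of the 9 collagens either, and Nid1, Itga3 and Col5a3 no longer passed (limma adjusted p 0.0983, 0.0984 and 0.113). The lowest depth of a measured collagen was 159 reads, for Col22a1.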
